A study of Saccharomyces cerevisiae with 18 samples.

Results

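The genes of the mitochondrial respiratory chain and of ATP synthase were taken from a yeast RNA-seq count table as every row whose gene name begins with COX, QCR, ATP or SDH followed by a digit. These were 58 of the 7124 genes in the table, and all 58 were among the 6139 genes with enough counts to be tested. They divide by role into 4 subunits of succinate dehydrogenase, 6 of the cytochrome bc1 complex, 10 nuclear subunits of cytochrome c oxidase, 13 nuclear subunits of ATP synthase, 20 assembly factors or chaperones of these complexes, and 5 genes of the mitochondrial genome. Positions below are on the R64 assembly of Saccharomyces cerevisiae and span each coding region from start to stop codon, introns included.

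Ste12 is a transcription factor of mating and invasion, and 6 variants of it were compared with the unchanged protein for RNA levels and for binding. The RNA came from exponentially growing haploid MATalpha cells of the BY4705 background whose chromosomal STE12 was deleted, and in which STE12 was supplied under its own promoter from a centromeric plasmid of low copy number. The plasmid form was A160P, K146D, K152L, K150A, K150I or S158H in the variants and the unchanged sequence in wild type (WT), so all 7 groups share the deletion, the vector and its LEU2 marker. In the study's description A160P, K146D and K152L mate poorly while the other 3 mate much as WT does, K146D, K152L, K150A and K150I are hyper-invasive, and S158H invades poorly. Each genotype had 5 biological replicates, 35 libraries in all. The labels pool replicates 1 and 2 as 1 sequencing sample and replicates 3, 4 and 5 as another, called experiment 1 and experiment 2 here. No source used here gives the medium or the density at harvest of single replicates.

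The respiratory chain passes electrons from NADH and succinate to oxygen and pumps protons out of the mitochondrial matrix, and ATP synthase uses the returning protons to make ATP. Budding yeast has no proton-pumping NADH dehydrogenase, so electrons enter through single-protein dehydrogenases and through succinate dehydrogenase, which is also an enzyme of the tricarboxylic acid (TCA) cycle. They then pass through the bc1 complex and cytochrome c to cytochrome c oxidase. Most subunits are nuclear genes activated by the Hap2/3/4/5 complex and by Hap1 and repressed while glucose is plentiful, when yeast ferments even in air. A few core subunits are encoded by mitochondrial DNA. Their transcripts in yeast lack the long poly(A) tails of nuclear mRNAs, so libraries primed with oligo-dT, as here, count them less directly.

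The libraries held 1039390 to 2850293 UMIs (unique molecular identifiers, each standing for 1 captured molecule) in replicates 4 and 5 and 2527748 to 5481822 in replicates 1 to 3. Levels are given as UMI counts per 1000000 (CPM) after TMM scaling. The division of the libraries into replicates 4 and 5 against replicates 1 to 3 was seen on the first principal component of these same libraries and is not a label, so differences along it are described here without a test. The deletion could be judged only through the plasmid: STE12 averaged 564 ± 165 CPM in A160P and 215 ± 44.3 CPM in S158H, against 156 ± 23.4 CPM in WT (SD, n = 5 each), and the other 4 variants lay between these 2. The 4 MATalpha marker genes summed to 482 to 3517.5 CPM in replicates 4 and 5 and 613 to 4947 CPM in replicates 1 to 3. In a fit with genotype alone all 4 were called lower in A160P, 1 in K146D and 1 in K152L. Of all genes 0.928%, 0.7% and 0.896% were called in these variants in either direction. None of the 4 was called in K150A, K150I or S158H. The 6 MATa marker genes, 4 of them tested, summed to 56.0 to 127 CPM in replicates 4 and 5, against 23.3 to 47.9 CPM in replicates 1 to 3. The a-factor genes MFA1 and MFA2 had at most 10 and 12 UMIs in any library, and the 3 meiotic markers summed to 31.3 to 77.5 CPM in replicates 4 and 5 and 20.7 to 43.0 CPM in replicates 1 to 3. The marker sums moved with the same division of the libraries as the results below, and their part in those results was not tested. In bulk RNA, fewer cells with a transcript and less of it per cell cannot be told apart.

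The largest differences in the respiratory genes lay between replicates and not between genotypes. Summed over the 58 genes, the level was 4564 to 6177 CPM in the 14 libraries of replicates 4 and 5, with a median of 5174, and 6484 to 7709 CPM in the 21 libraries of replicates 1 to 3, with a median of 6965. The 2 ranges did not overlap. Within each genotype the mean log2(CPM + 1) of replicates 4 and 5 was then set against that of replicates 1 to 3, and the median of the 7 genotypes was taken for each gene. The median over the 58 genes was −0.37 on this log2 scale, against 0.01 over all genes tested. Of the 58 genes, 47 (81.0%) lay below 0, as did 49.5% of all genes tested, and 12 (20.7%) lay below −1, against 5.42% of all genes. For 13 of them (22.4%) every library of replicates 4 and 5 was lower than every library of replicates 1 to 3, beside 7.38% of all genes tested. No respiratory gene had all of replicates 4 and 5 above replicates 1 to 3, and 3.75% of all genes did. By genotype, the median over the 58 genes ran from −0.44 in A160P and −0.43 in K146D to −0.30 in K152L and −0.29 in K150A, with −0.41 in WT, so all 7 genotypes showed it.

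**Figure D1:**
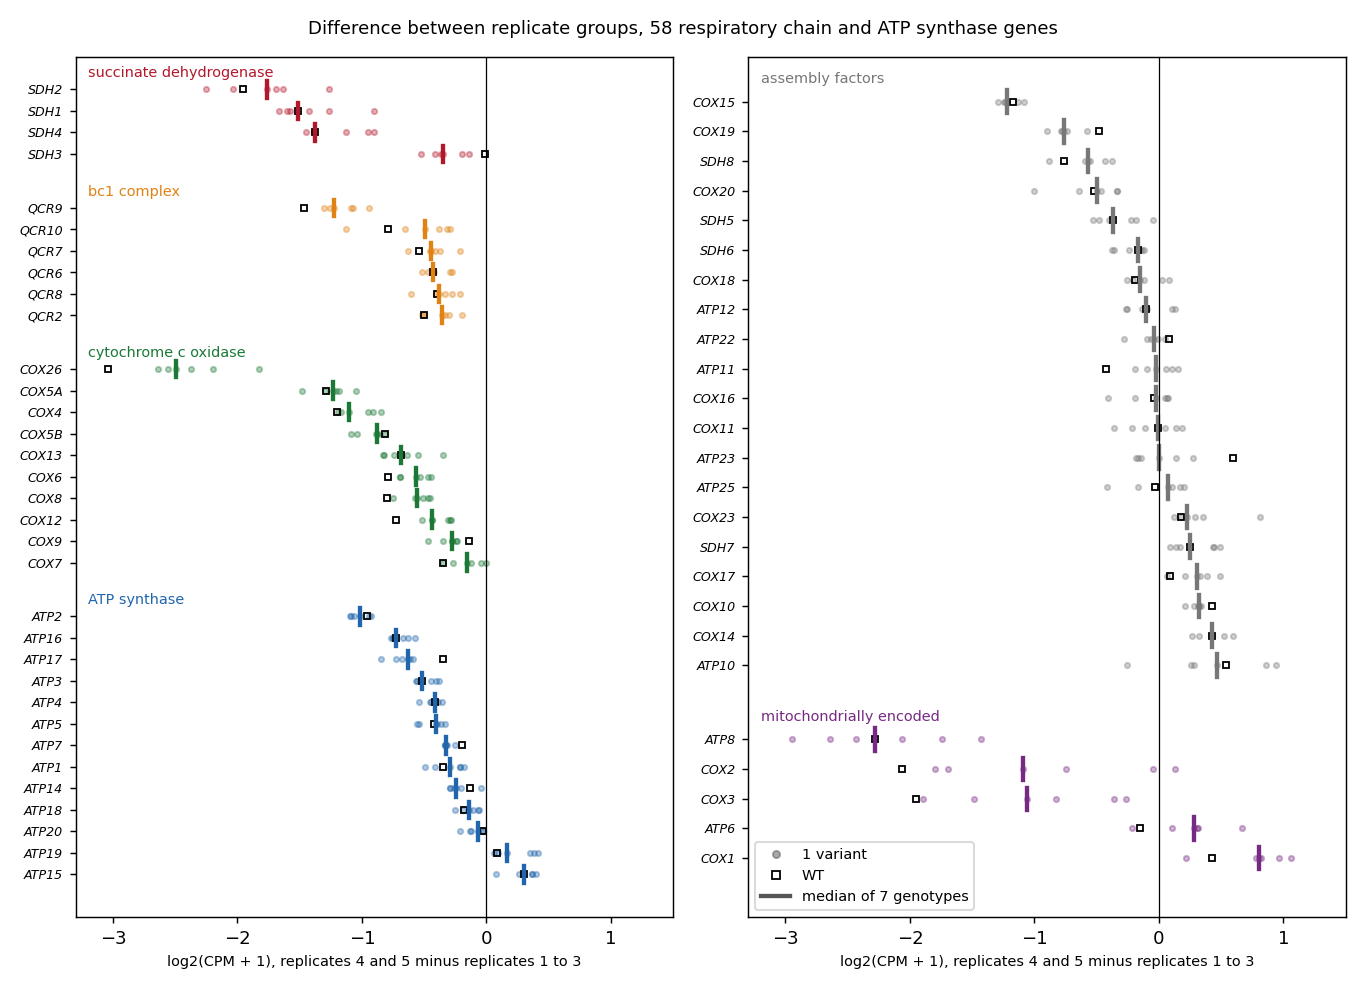
Difference in log2(CPM + 1) between replicates 4 and 5 and replicates 1 to 3 for each of the 58 genes, by role; each dot is 1 variant, the open square is WT and the bar is the median of the 7 genotypes. Nearly all structural subunits lie left of 0, with COX26 at −2.49 and SDH2 at −1.77, while the assembly factors scatter around 0 and COX1 lies at 0.80.

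The nuclear structural subunits accounted for most of this. Of the 33, 31 were lower in replicates 4 and 5 in all 7 genotypes, and only ATP15 and ATP19 were higher in all 7, while of all genes tested 28.8% were lower and 27.6% higher in all 7. With library totals in place of TMM factors, 26 of the 33 were lower in all 7 genotypes, and ATP14, ATP18, ATP20, COX7 and SDH3 no longer were. Of the 20 assembly factors, 6 were lower and 5 higher in all 7 genotypes, shares near those of all genes. By role, the median difference was −1.45 for succinate dehydrogenase, −0.44 for the bc1 complex, −0.63 for cytochrome c oxidase, −0.32 for ATP synthase, −0.02 for the assembly factors (0.11 with library totals) and −1.06 for the mitochondrial genes. Split by the genomic span of the gene, the median was −0.38 for the 27 shorter nuclear genes and −0.36 for the 26 longer ones. Sequencing depth was lower in replicates 4 and 5, and its part in these differences was not tested.

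Succinate dehydrogenase had the lowest median of the 4 complexes. SDH2, the iron-sulfur subunit (chromosome XII, 53131 to 53931), ran from 10.4 to 28.4 CPM in replicates 4 and 5, with a median of 16.5, against 48.8 to 79.2 CPM in replicates 1 to 3, with a median of 59.6. In WT the 5 values were 10.4 and 19.2 CPM in replicates 4 and 5 and 64.4, 61.4 and 48.8 CPM in replicates 1, 2 and 3. The difference was −1.77 ± 0.32 (SD over 7 genotypes). SDH1, the flavoprotein subunit that oxidizes succinate, ran from 8.004 to 22.4 CPM in replicates 4 and 5 and from 25.3 to 50.8 CPM in replicates 1 to 3, a difference of −1.51 ± 0.26. For both subunits the 14 and the 21 libraries did not overlap. SDH3, a membrane anchor subunit, had the smallest difference, at −0.35 ± 0.18, and its libraries overlapped, at 64.5 to 107 CPM in replicates 4 and 5 and 73.7 to 123 CPM in replicates 1 to 3. SDH4, the other anchor, lay at −1.38 ± 0.23, with overlapping libraries. Yeast also carries a diverged paralogue of SDH1, YJL045W, and SHH3 and SHH4, paralogues of the anchors. YJL045W was higher in replicates 4 and 5 in all 7 genotypes, at 1.13 ± 0.45, with 1.22 to 12.6 CPM in replicates 4 and 5 and 1.02 to 4.28 CPM in replicates 1 to 3. SHH3 lay at 0.20 ± 0.48 and SHH4 at −0.03 ± 0.24. No source used here says how reads shared between such copies were counted.

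All 6 bc1 subunits were lower in replicates 4 and 5 in all 7 genotypes. QCR9, a small subunit needed for a functional iron-sulfur protein, was the only 1 whose libraries did not overlap, at 17.9 to 36.6 CPM in replicates 4 and 5 and 52.5 to 89.2 CPM in replicates 1 to 3, a difference of −1.23 ± 0.17. QCR6, the acidic hinge subunit, ran from 205 to 309 CPM in replicates 4 and 5 and from 288 to 360 CPM in replicates 1 to 3, a difference of −0.43 ± 0.09. QCR2, a core subunit, had the smallest difference, at −0.35 ± 0.12. Other parts of the complex have names that the rule does not catch. The Rieske iron-sulfur protein RIP1 lay at 7.53 to 25.97 CPM in replicates 4 and 5 and 48.0 to 73.7 CPM in replicates 1 to 3, a difference of −1.79 ± 0.39. Cytochrome c1, CYT1, lay at −0.90 ± 0.31 and the core subunit COR1 at −0.45 ± 0.12. The 2 genes of cytochrome c differed. CYC7, the minor isoform that yeast makes chiefly when oxygen is low, ran from 2.52 to 11.5 CPM in replicates 4 and 5 and from 14.1 to 61.0 CPM in replicates 1 to 3, a difference of −2.45 ± 0.46, while CYC1, the main isoform, lay at 0.28 ± 0.26 with overlapping libraries.

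All 10 nuclear subunits of cytochrome c oxidase were lower in replicates 4 and 5 in all 7 genotypes, 4 of them without overlap. COX26, a small subunit found in the supercomplexes of the bc1 complex and the oxidase, had the largest difference of the 58 genes at −2.49 ± 0.38, with 1.41 to 9.45 CPM in replicates 4 and 5 and 11.7 to 39.6 CPM in replicates 1 to 3. It is a weakly counted gene, with 3 to 22 UMIs per library in replicates 4 and 5. COX4, needed for assembly of the enzyme and named here after its values were seen, lay at −1.10 ± 0.15 without overlap. COX13, a subunit at the surface of the enzyme's core, ran from 92.7 to 182 CPM in replicates 4 and 5 and from 164 to 252 CPM in replicates 1 to 3, a difference of −0.68 ± 0.17. COX7 was nearest to 0, at −0.15 ± 0.14.

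Subunit 5 of the oxidase exists in 2 isoforms, COX5A, made in air, and COX5B, made when oxygen is low. COX5A (chromosome XIV, 531725 to 532186) ran from 31.8 to 55.0 CPM in replicates 4 and 5, with a median of 39.4, and from 74.9 to 113 CPM in replicates 1 to 3, with a median of 96.6, so that the ranges did not overlap. Its difference was −1.23 ± 0.13. COX5B (chromosome IX, 155222 to 155765) ran from 48.0 to 137 CPM in replicates 4 and 5, with a median of 78.7, and from 103 to 236 CPM in replicates 1 to 3, with a median of 165, a difference of −0.88 ± 0.11. Both isoforms were thus lower in all 7 genotypes. The share of COX5B among the UMIs of both was 49.8% to 79.3% in replicates 4 and 5 (median 65.9%) and 53.6% to 69.6% in replicates 1 to 3 (median 62.5%), so the shares overlapped and the wider spread was in replicates 4 and 5. COX5B was high in replicate 4 of the 6 variants, at 85.7 to 137 CPM, and low in their replicate 5, at 53.5 to 71.6 CPM, whereas WT had 48.0 CPM in replicate 4 and 122 CPM in replicate 5.

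**Figure D2:**
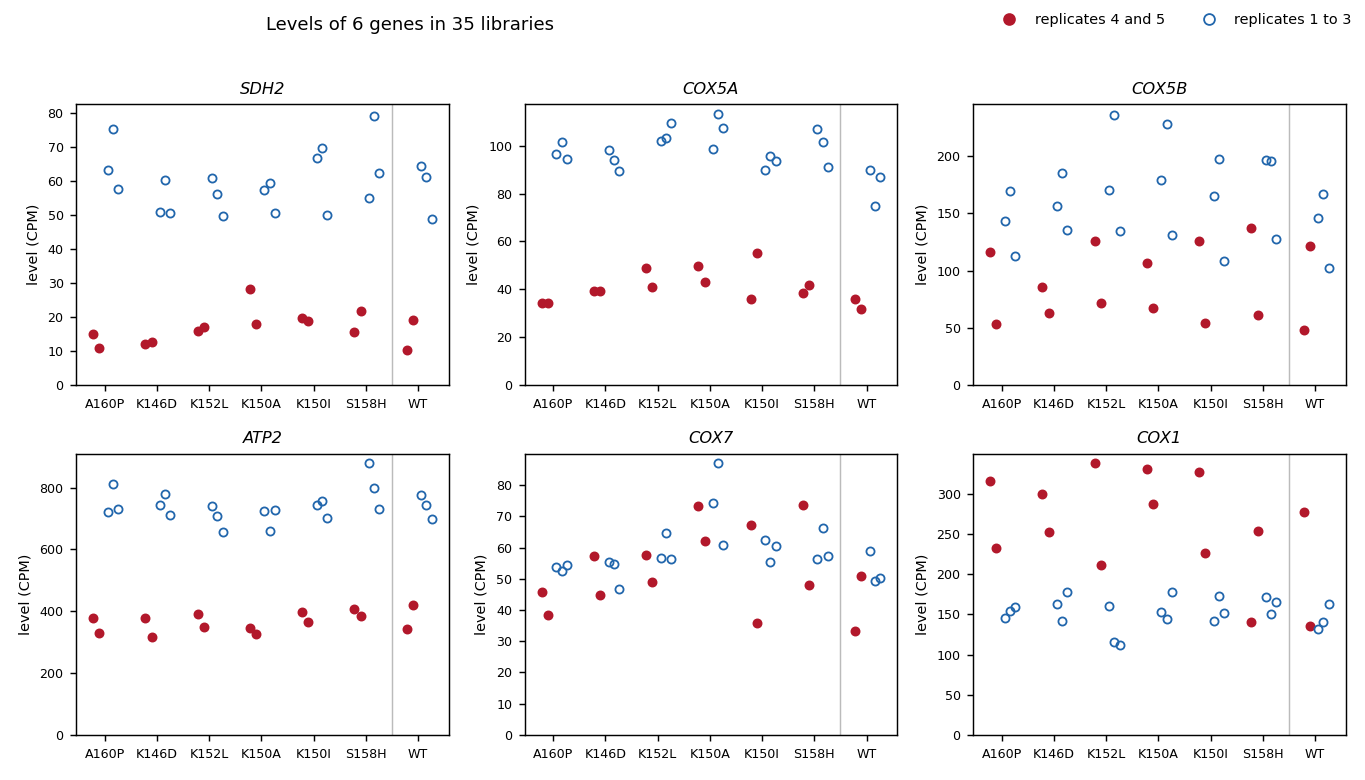
Levels in CPM of SDH2, COX5A, COX5B, ATP2, COX7 and COX1 in each of the 35 libraries, by genotype with WT at the right; filled points are replicates 4 and 5 and open points are replicates 1 to 3, each in order of replicate number. SDH2, COX5A and ATP2 separate the 2 groups of replicates in every genotype, COX7 is high in K150A, and COX1 is high in replicates 4 and 5 of most genotypes.

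Of the 13 nuclear subunits of ATP synthase, 11 were lower in replicates 4 and 5 in all 7 genotypes. ATP2, the catalytic beta subunit of the F1 head (chromosome X, 647607 to 649142), had the largest difference of the 13. It ran from 317 to 420 CPM in replicates 4 and 5, with a median of 371, and from 656 to 880 CPM in replicates 1 to 3, with a median of 730.1, without overlap. Its difference was −1.01 ± 0.07. The alpha subunit ATP1, named here as its partner in the head, lay at only −0.29 ± 0.12, with 394 to 522 CPM in replicates 4 and 5 and 483 to 625 CPM in replicates 1 to 3. In the central stalk ATP16 (delta) lay at −0.73 and ATP3 (gamma) at −0.52, both without overlap. In the stator, the outer stalk, ATP4 (subunit b) lay at −0.42 without overlap, while ATP5 at −0.41, ATP7 at −0.32 and ATP14 at −0.24 overlapped. Of the membrane part, ATP17 (subunit f) lay at −0.63 without overlap, and ATP18 at −0.14 and ATP20 at −0.06 overlapped. ATP15, the epsilon subunit of the rotor, was higher in all 7 genotypes at 0.30 ± 0.11, with 122 to 198 CPM in replicates 4 and 5 and 95.9 to 155 CPM in replicates 1 to 3, which overlapped. ATP19 lay at 0.16 ± 0.15.

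Among the assembly factors COX15 stood apart. COX15 makes heme A, the cofactor of cytochrome c oxidase, from the heme O that COX10 makes. COX15 ran from 25.4 to 48.8 CPM in replicates 4 and 5 and from 71.8 to 114 CPM in replicates 1 to 3, a difference of −1.22 ± 0.07 without overlap, and it was the only 1 of the 20 with no overlap. COX10 moved the other way, at 0.32 ± 0.06, with overlapping libraries. ATP10, a chaperone of the mitochondrially encoded ATP6 protein, had the highest value of the 20, at 0.47 ± 0.40, but it held only 2 to 17 UMIs per library and was lower in 1 of the 7 genotypes. Of the other 17, COX19, SDH8, COX20, SDH5 and SDH6 were lower and COX14, COX17, COX23 and SDH7 higher in all 7 genotypes.

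The 5 genes of mitochondrial DNA did not move together. COX1, which holds the oxygen-reducing site of the oxidase, ran from 136 to 338 CPM in replicates 4 and 5, with a median of 266, and from 112 to 178 CPM in replicates 1 to 3, with a median of 153. It was higher in replicates 4 and 5 in all 7 genotypes, at 0.80 ± 0.30, but S158H replicate 4 at 141 CPM and WT replicate 5 at 136 CPM lay within the range of replicates 1 to 3. ATP8, a short membrane subunit of ATP synthase, lay at −2.28 ± 0.52, with 0 to 2.64 CPM in replicates 4 and 5 and 2.17 to 12.9 CPM in replicates 1 to 3. Its 14 libraries of replicates 4 and 5 held 0 to 6 UMIs each, and the 4 libraries at 0 (K146D replicate 5, K152L replicate 4, K150I replicate 4 and WT replicate 5) each allow up to 3 UMIs by counting error alone. COX2 and COX3 lay at −1.10 ± 0.87 and −1.06 ± 0.69, and ATP6 at 0.28 ± 0.30. OLI1, which encodes the proton-carrying ring of ATP synthase on mitochondrial DNA and is not caught by the name rule, lay at −2.09 ± 0.21 without overlap, at 38.4 to 79.2 CPM in replicates 4 and 5 and 204 to 341 CPM in replicates 1 to 3. COX1, COX2, COX3, ATP6, OLI1 and the cytochrome b gene COB were thus detected in every library.

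**Figure D3:**
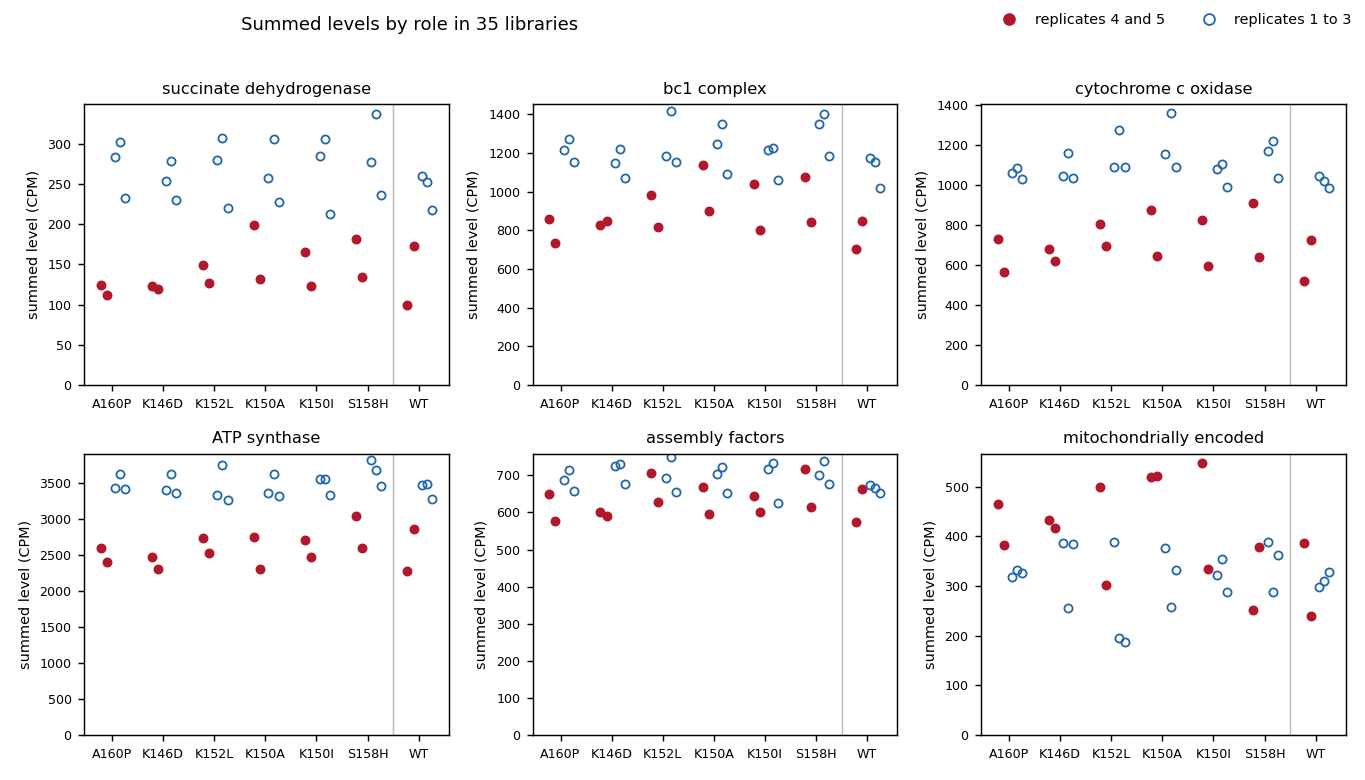
Summed level in CPM of the genes of each role in each of the 35 libraries, by genotype with WT at the right; filled points are replicates 4 and 5 and open points replicates 1 to 3. The 2 groups of replicates do not overlap for succinate dehydrogenase (99.8 to 199 CPM in replicates 4 and 5, against 212 to 337 CPM), cytochrome c oxidase or ATP synthase, and they overlap for the bc1 complex, the assembly factors and the mitochondrial genes.

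The labelled experiments gave a smaller difference. Replicates 3 to 5 minus replicates 1 and 2 had a median of −0.34 over the 58 genes, and replicate 3 minus replicates 1 and 2 had a median of −0.10, so replicate 3 lay near replicates 1 and 2 although it was pooled with replicates 4 and 5. COX5B at −0.60 and SDH1 at −0.55 lay lower in replicate 3. For both genes every library of experiment 2 lay below every library of experiment 1. The share of all genes without overlap between the labelled experiments is not given here.

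Most further genes of the chain, the TCA cycle and glycolysis moved with the respiratory genes. Of 18 further genes of the chain and its transporters, 15 lay below 0 and 9 did not overlap, with a median of −0.49, beside 49.5% below 0 and 7.38% not overlapping and lower among all genes tested. Of 10 TCA cycle genes, 9 lay below 0 and 6 did not overlap, with a median of −0.74, and CIT1, the citrate synthase of mitochondria, lay at −0.99 ± 0.16. Of 13 genes of glycolysis and fermentation, all lay below 0 and 10 did not overlap, with a median of −0.81. Of the 5 Hap activators, 3 lay below 0, with a median of −0.42, and HAP1 was the only 1 without overlap. HAP4, the regulated subunit of the Hap complex, lay at −0.42 ± 0.22, with 112 to 242 CPM in replicates 4 and 5 and 184 to 273 CPM in replicates 1 to 3. The other way went HAP2, at 0.16 ± 0.24 and higher in all 7 genotypes, and HAP3, at 0.18 ± 0.18 and higher in 6. The 12 glucose-repressed genes had a median of −0.03 and none without overlap, and within them MLS1, malate synthase, was higher at 1.84 ± 0.21 and HXK1, hexokinase 1, lower at −2.47 ± 0.99. These 2 genes were named after their values were seen.

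Replicates 4 and 5 differed from each other too, and the WT libraries ran against the variants. More of the 58 genes were higher in replicate 4 than in replicate 5 in every variant, 44 in A160P, 35 in K146D, 43 in K152L, 50 in K150A, 44 in K150I and 44 in S158H, against 14 in WT. Over all genes tested, the difference of replicate 4 minus replicate 5 in WT had a correlation across genes of −0.14 to −0.66 with that in each variant, while the median among variants was 0.24 to 0.62. Genes are not independent replicates, and these values are given as a description. The calls made with replicate numbers as a block are therefore also given without WT replicates 4 and 5. The labels do not say whether these 2 WT numbers match those of the variants.

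Between each variant and WT, none of the 58 genes passed the test. The fit used genotype alone over all 35 libraries with edgeR's quasi-likelihood test, and adjusted p-values over all 6139 genes. It called 0 of the 58 genes in each of the 6 comparisons, beside 0.928% of all genes in A160P, 0.7% in K146D, 0.896% in K152L, 0.586% in K150A, 0.0652% in K150I and 0% in S158H. At an unadjusted p below 0.05 there were 1, 3, 2, 4, 1 and 4 of the 58 genes in A160P, K146D, K152L, K150A, K150I and S158H. DESeq2 called 1, COX7 in K150A. The median log2 fold change over the 58 genes was 0.06 in A160P, 0.05 in K146D, 0.10 in K152L, 0.13 in K150A, 0.07 in K150I and 0.18 in S158H, and 65.5% to 81.0% of the 58 genes lay above 0, against 48.4% to 52.6% of all genes tested. The 6 comparisons share the WT libraries, so they are not separate evidence of a common direction. The interaction of genotype with the labelled experiment passed for 0 of the 58 genes in any variant by the same edgeR test, with 0 or 1 of them at an unadjusted p below 0.05, and it was not fitted with DESeq2. It also called 0 of all 6139 genes in each variant, with 41 to 65 of them at an unadjusted p below 0.05.

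The fit with genotype alone left the differences between replicates within its error, with a common dispersion of 0.0692. With the replicate number as a block the dispersion was 0.01597. The test called 7 of the 58 genes higher in K150A (COX7, COX5A, QCR8, COX12, COX15, COX6 and QCR10) and 1, COX5A, higher in K152L. Of all genes 4.82% and 3.62% were called in either direction. Over the 6139 genes these were 133 higher and 163 lower in K150A, and 81 higher and 141 lower in K152L. The block fit called 0 in A160P, K146D, K150I and S158H, beside 2.59%, 1.92%, 0.391% and 1.19% of all genes, with 3, 6, 7 and 17 of the 58 at an unadjusted p below 0.05. DESeq2 without a block called none of the 58 in these 4. With WT replicates 4 and 5 left out, the block fit called 6 in K150A (COX7, COX5A, COX5B, QCR8, COX15 and SDH3), 4 in K152L (COX5A, COX5B, COX9 and COX15), 3 in S158H (COX5B, COX9 and QCR8), 1 in A160P (COX15) and none in K146D or K150I, all of them higher. These were 10.3%, 6.9%, 5.17%, 1.72%, 0% and 0% of the 58 genes in K150A, K152L, S158H, A160P, K146D and K150I, beside 7.17%, 6.75%, 3.41%, 4.79%, 1.96% and 1.93% of all genes tested. The shares over all genes count calls in either direction, and those of higher calls alone are not given here for this setting. Set against them, the shares of K152L and of the last 3 were near or below. COX12, COX6 and QCR10 were then not called in K150A, at adjusted p of 0.0874, 0.143 and 0.101 (edgeR). In replicates 1 to 3 alone the block fit called 7 in K150A, 6 of them higher (COX15, COX5A, COX5B, COX7, COX9 and QCR8) and ATP1 lower. In K152L it called 6, 5 of them higher (COX15, COX5A, COX5B, QCR8 and SDH3) and COX11 lower. It also called 4 in S158H (ATP20, COX15, COX5B and QCR8) and 1 in K150I (COX15), these 5 all higher, and none in A160P or K146D. These were 12.1%, 10.3%, 6.9%, 1.72%, 0% and 0% of the 58 genes in K150A, K152L, S158H, K150I, A160P and K146D, beside 11.4%, 12.8%, 8.46%, 5.65%, 11.1% and 2.63% of all genes tested, so no variant had a share well above that of all genes. In the variants with none called, 5 to 7 of the 58 were at an unadjusted p below 0.05 in these 2 settings. Both of these settings were added after the data had been seen.

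**Figure D4:**
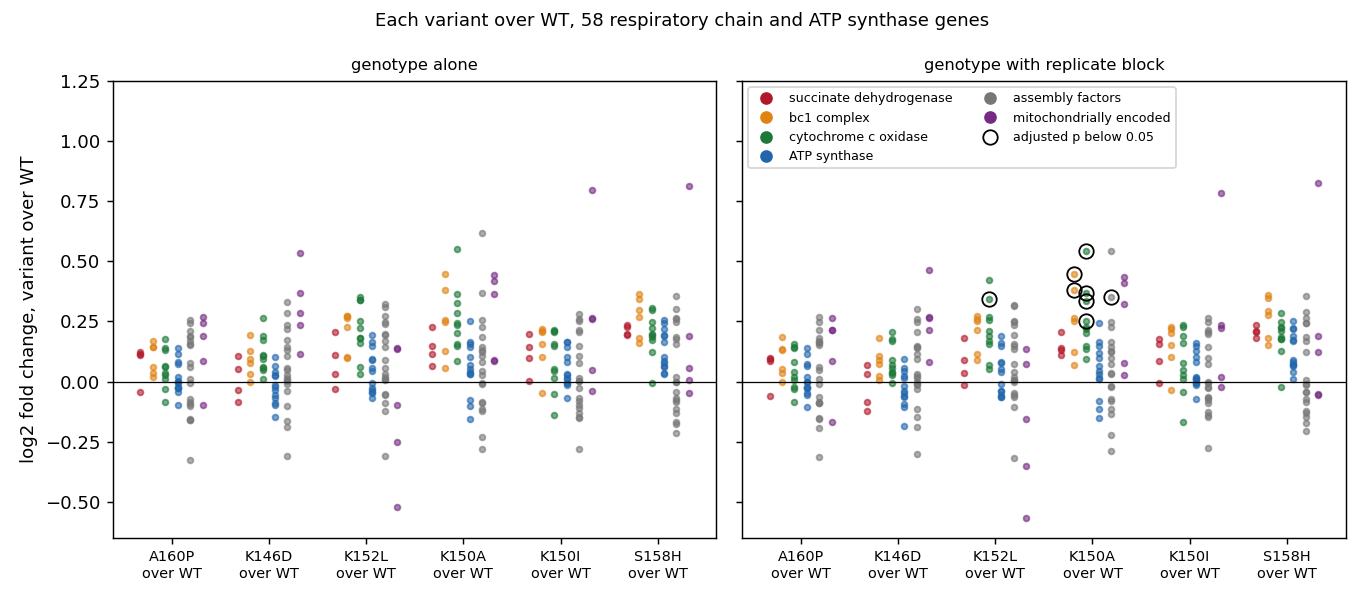
Log2 fold change of each variant over WT for the 58 genes, coloured by role, in the fit with genotype alone (left) and with the replicate number as a block (right); black rings mark adjusted p below 0.05. The fold changes are nearly the same in both fits, no gene is ringed at the left, and 7 genes in K150A and 1 in K152L are ringed at the right.

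COX7, a small subunit of the oxidase that is needed for its assembly (chromosome XIII, 778945 to 779127), was the clearest of these. It stood at 74.4, 87.3, 60.7, 73.2 and 62.0 CPM in K150A replicates 1 to 5, against 59.0, 49.4, 50.2, 33.4 and 50.9 CPM in WT. The 5 values of K150A all lay above the 5 of WT. The log2 fold change was 0.55 ± 0.15 (SE), with an adjusted p of 0.0963 with genotype alone (edgeR) and 0.0042 with the block, and the block call held with each of the 35 libraries left out in turn. COX5A stood at 98.5, 113, 108, 49.7 and 43.1 CPM in K150A and at 102, 103, 110, 49.0 and 41.1 CPM in K152L, against 89.8, 74.9, 86.9, 35.8 and 31.8 CPM in WT. Both variants were higher than WT at every replicate number, though the ranges overlapped. The block fit gave 0.37 ± 0.09 in K150A (adjusted p = 0.0122, edgeR) and 0.35 ± 0.09 in K152L (adjusted p = 0.0186), and both calls were lost without WT replicate 2, the K152L call also without K152L replicate 3. Without WT replicates 4 and 5 the adjusted p was 0.0235 in K150A and 0.0340 in K152L.

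QCR8, a subunit at the interface with ubiquinone, stood at 263, 292, 244, 259 and 202 CPM in K150A, against 238, 214, 188, 133 and 196 CPM in WT. K150A was higher at all 5 numbers, with a block value of 0.38 ± 0.09 (adjusted p = 0.0153, edgeR), lost only without K150A replicate 4. QCR10, a small bc1 subunit, stood at 92.6, 114, 87.0, 90.1 and 67.0 CPM in K150A, against 84.7, 76.1, 77.0, 40.5 and 50.9 CPM in WT, with a block value of 0.45 ± 0.13 (adjusted p = 0.0430). COX12 lay at 0.34 ± 0.09, COX15 at 0.35 ± 0.10 and COX6 at 0.25 ± 0.07 in the block fit, with adjusted p of 0.0295, 0.0296 and 0.0298. The calls of QCR10, COX12, COX15 and COX6 were each lost when any 1 of 4 to 6 libraries was left out, WT replicate 2 being among them for all 4. The number called in K150A with the block was 2 without WT replicate 2 or K150A replicate 4, 3 without K150A replicate 2, and 12 without WT replicate 5. In S158H, where none was called, it was 9 without WT replicate 5, and in K152L it was 7 without WT replicate 5. The matching counts over all genes are not given here. These counts therefore cannot be set against a share of all genes and are no result about the respiratory genes.

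COX11, which delivers copper to the oxidase, had the smallest p in 4 of the 6 comparisons with WT and was lower in each. It stood at 34.999, 36.0, 38.5, 25.9 and 30.7 CPM in A160P, against 45.3, 41.5, 39.2, 38.1 and 45.4 CPM in WT, so A160P was lower at all 5 numbers. The log2 fold change was −0.33 ± 0.12, with an adjusted p of 0.487 (edgeR). The ranges of A160P and WT overlapped slightly. The means were 33.2 to 34.6 CPM in A160P, K146D, K152L, K150A and K150I and 41.9 CPM in WT, and the adjusted p with genotype alone (edgeR) was 0.822 in K146D, 0.545 in K152L and 0.99991 in K150I. These comparisons share the 5 WT libraries. With the replicate block in replicates 1 to 3 alone, COX11 was called lower in K152L, where 12.8% of all genes were called. That setting was added after the data had been seen. ATP20, subunit g of ATP synthase, had the smallest p in S158H, at 127, 132, 133, 130 and 108 CPM, against 109, 103, 107, 98.4 and 110 CPM in WT. S158H was higher at 4 of the 5 numbers. Its log2 fold change was 0.26 ± 0.08, with an adjusted p of 0.99955 with genotype alone (edgeR) and 0.0794 with the block.

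HAP4 stood at 269.8, 261, 259.85, 218 and 242 CPM in K150A, against 229.7, 184, 186, 112 and 168 CPM in WT, higher at all 5 numbers. Its log2 fold change in the block fit was 0.53 ± 0.09 in K150A (adjusted p = 0.00046, edgeR), 0.40 ± 0.09 in K152L (0.0088) and 0.42 ± 0.09 in S158H (0.0240), and with genotype alone it passed in none, at adjusted p of 0.345 in K150A. CYC7 was called higher with the block in A160P, K152L, K150A and S158H, at 0.82 to 1.00, and with genotype alone in none. STF2, a protein that stabilizes the inhibited form of ATP synthase, was called higher with the block in S158H, at 0.78 ± 0.19 (adjusted p = 0.0400, edgeR), and not with genotype alone (adjusted p = 0.99955). Of the 10 TCA cycle genes, ACO1, the aconitase, was called lower in K150A with the block, at −0.61 ± 0.12, and none was called with genotype alone. None of the 13 glycolysis genes was called in any variant in either fit over all 35 libraries. Of the 12 glucose-repressed genes, SUC2, the invertase, was called higher in K152L with genotype alone, at 1.50 ± 0.37 (adjusted p = 0.0340, edgeR), and with the block the test called 1 in K146D, 1 in K152L and 4 in K150A, SUC2 in all 3, and with it JEN1, CAT8 and ADR1 in K150A. Each of these block calls, from HAP4 to ADR1, held without WT replicates 4 and 5, with adjusted p of up to 0.0334 for HAP4, 0.0144 for CYC7, 0.0028 for STF2, 0.00030 for ACO1, 0.0041 for SUC2, 0.0098 for JEN1, 0.0197 for CAT8 and 0.0109 for ADR1 (edgeR). Leaving those libraries out also added calls: STF2 higher in K152L and K150A, ACO1 lower in K152L, and ADH1, the alcohol dehydrogenase of fermentation, higher in every variant but K146D, at 0.47 to 0.54.

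Binding of the Ste12 proteins near these genes was taken from calling cards, in which each Ste12 form was fused to the PiggyBac transposase and expressed from a galactose-inducible promoter in BY4705 cells that kept their own STE12, so that unchanged Ste12 was present in every library, and transposon insertions counted by UMI mark where the fusion was. Each genotype had 2 libraries, with 5904 to 12778 UMIs in 2188 peaks, and the transposase-only controls were not analysed here. A peak counted as a site when both libraries of a genotype held at least 3 UMIs, and as near a gene when it overlapped the stretch reaching 1000 bp upstream and 200 bp downstream of where the coding region begins. Of the 53 nuclear genes, 6 (11.3%) had a site in at least 1 genotype, beside 15.3% of 6002 nuclear genes, and 1, ATP16, had a site in WT, beside 4.6%. These counts are a description. K146D had 3 genes with a site (5.66%, beside 5.11% of all genes) and K150I 2 (3.77%, beside 2.58%). K150A had 1 (1.89%, beside 4.23%) and S158H 1 (1.89%, beside 3.1%). A160P and K152L had 0, beside 1.68% and 2.1% of all genes.

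The strongest of these sites was on chromosome VIII from 341606 to 341708, in the windows of COX23, DMA1 and TOM71. It held 257 and 301 UMIs in S158H and 3 and 15 in K150I, against 1 and 0 in WT. COX23, a copper-related assembly factor, stood at 6.44, 13.9, 11.3, 9.99 and 13.4 CPM in S158H, against 12.3, 12.4, 8.83, 13.7 and 11.6 CPM in WT, so its level overlapped. The WT site of ATP16, on chromosome IV from 442716 to 442816 in the windows of ATP16 and MED2, held at most 1 UMI in any library of a variant, against 21 and 10 in WT. The other sites were near ATP20 in K150A (8 and 4 UMIs, with 0 and 0 in WT), near COX9 in K150I (20 and 19, with 0 and 0 in WT) and near COX11 (10 and 4, with 0 and 0 in WT), COX14 (4 and 4, with 1 and 0 in WT) and ATP16 (6 and 5, with 1 and 0 in WT) in K146D. Of these, the COX9 site also lay in the windows of CBS1 and IDP1, the COX11 site in that of RDS2 and the ATP16 site in that of MED2. Of the 7 genes called in K150A with the block, none had a site in any genotype, beside 15.3% of 6002 nuclear genes. With so few genes this cannot be told apart from the share of all genes.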

How the data were processed

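RNA-seq libraries were primed with oligo-dT carrying a UMI, and the counts of UMIs for each gene were deposited as raw values by the authors. The submitters' processing notes name bcl2fastq, Trim Galore 0.4.1, STAR, MACS2 and the R64 build without roles. For calling cards the authors deposited, for each peak, a natural log value (UMIs per 1000000, plus 1), and 100% of 30632 values gave whole UMIs within 0.001.

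The genes and lists were chosen with earlier results of these data known. Counts of all 35 libraries, without URA3, were fitted with edgeR 4.0.16 (R 4.3.3, TMM, filterByExpr, quasi-likelihood test, Benjamini-Hochberg over 6139 genes, threshold 0.05), tested on simulated counts. DESeq2 1.42.0, other scalings, covariates, subsets and left-out libraries were alternatives. Libraries of a variant and WT with the same replicate number deviated together in all 30 pairs (r of 0.191 to 0.763, median 0.576), so values with the replicate number as a block are given where they change a call. Unlike numbers also deviated together, since replicates 4 and 5 stood apart from 1 to 3. Within replicates 1 to 3 the median r was 0.630 for the same number and 0.514 for unlike numbers, and within replicates 4 and 5 it was 0.315 and 0.749, so WT replicate numbers 4 and 5 ran against those of the variants, and whether they were exchanged was not tested. The numbers come from the column names and the labels do not say what a number shares. If cultures were not separate, p-values measure only the spread between these samples. Genes named with values are, in each role, those with the highest mean CPM and with the largest and smallest difference between replicate groups, the smallest p in each variant, every call of the fits over all 35 libraries with genotype alone and with the block, and a set list. A few others are marked as chosen after their values were seen, as are the further genes given with their difference alone. Promoter motifs were not used here. The tables of barcodes and sample names list the same pairs of genotype and replicate as the column names, and were not used otherwise.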

Additional observations from a re-analysis of the deposited data

Results flagged for a closer look

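Of 203 groups of 5 libraries examined, 8 had 1 library far from the other 4, with a gap of more than 0.71 of the whole range (Dixon's critical value), and chance gives about 1 group in 20. WT replicate 4 was low for the summed assembly factors, at 573 CPM with the nearest library at 652 CPM (ratio 0.779), and high for COX1, at 278 CPM with the nearest at 164 CPM (0.781). K150I replicate 4 was high for the summed mitochondrial genes, at 548 CPM with the nearest at 353 CPM (0.747), and for ATP15, at 191 CPM with the nearest at 139.96 CPM (0.727). K146D replicate 2 was low for the summed mitochondrial genes, at 255 CPM with the nearest at 384 CPM (0.725). S158H replicate 5 was high for COX1, at 254 CPM with the nearest at 172 CPM (0.724), and low for ATP20, at 108 CPM with the nearest at 127 CPM (0.744). K150A replicate 4 was high for COX11, at 39.9 CPM with the nearest at 34.5 CPM (0.728).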

How the results depend on the processing

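With genotype alone no respiratory gene was called, and this count moved under these settings. In K152L it was 1 with the replicate block, 2 in experiment 1 alone, 1 in replicates 1 to 3 alone and 1 with the replicate group as covariate. In that order these settings called 222, 374, 327 and 137 of all genes in K152L. In K150A it was 7 with the replicate block, 1 with experiment as covariate, 2 in experiment 1 alone, 2 in replicates 1 to 3 alone, 3 with the replicate group as covariate, 1 with DESeq2, and 0 to 1 with 1 library left out. All but the last of these settings called, in that order, 296, 61, 334, 290, 167 and 58 of all genes in K150A. In S158H it was 1 in experiment 1 alone, beside 316 of all genes. With the replicate block, K152L had 6 in replicates 1 to 3 alone and 4 without WT replicates 4 and 5, S158H 4 and 3 and K150I 1 in replicates 1 to 3 alone, and A160P 1 without WT replicates 4 and 5. With 1 library left out the block counts were 0 to 1 in A160P, 0 to 7 in K152L, 2 to 12 in K150A, 0 to 1 in K150I and 0 to 9 in S158H. The matching counts over all genes are not given here. The block settings beyond the first, and the replicate group as covariate, were chosen after seeing the data. The median difference between replicate groups was −0.24 with library totals, which shift the median of all genes to 0.15, and −0.40 to −0.35 with 1 library left out. The differences between replicate groups of COX11 and ATP20, −0.01 and −0.06, turned to 0.082 and 0.068 with library totals. That of COX11 ran from −0.11 to 0.053 with 1 library left out. Its fold change against WT stayed negative under all alternatives in A160P, K146D, K152L and K150I. Genes with a binding site fell to 3 at a minimum of 10 UMIs, while over all genes they fell from 918 to 566. Elsewhere 508 counts or medians stayed equal or close to their main value, for the median within the SD over genotypes of 0.063. A count that stayed close can still stand for other genes, as with the block calls in K150A.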
